A study of Mus musculus with 6 samples.

Results

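The nuclear pore and nuclear transport genes are the genes that build the pores of the nuclear envelope and carry cargo through them. They were taken from the deposited count table by name. A gene was a member if it was annotated as protein coding and its name began with Nup, Ipo, Xpo, Kpna, Kpnb or Tnpo followed by a digit, or if it was one of Ndc1, Pom121, Seh1l, Sec13, Tpr, Aaas, Rae1, Ran, Ranbp1, Ranbp2, Rangap1, Rcc1 and Cse1l. This gave 55 members among 27372 genes, and 54 of them were among the 15087 genes with enough reads to be tested. The rule used no measured value. The untested member was Nup62cl, a relative of Nup62 with fewer counts than the filter on low values requires. The study sequenced total RNA of neural stem cells taken from mice at postnatal day 7 and grown as neurospheres, with collection on culture day 7. The medium was DMEM/F12 with 2% B27, 0.2% BSA, and EGF and bFGF at 20 ng/ml each. The 3 control libraries are labelled wild type, and the other 3 are labelled Sirt6 knockout, which the design text calls a conditional knockout. The sources used here give neither the driver of the deletion nor the deleted exons nor the number of animals behind a library. The p-values therefore measure the spread between these libraries, and how much of it is technical is not known.

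The pore is a ring-shaped assembly with many copies of each nucleoporin. An outer ring (the Y complex) and an inner ring form the scaffold, membrane proteins anchor it, and nucleoporins rich in phenylalanine-glycine repeats fill the channel. Filaments on the cytoplasmic face and a basket on the nuclear face extend from it. Importins and exportins bind cargo and pass the channel, and the small GTPase Ran sets the direction, because Rcc1 loads it with GTP in the nucleus and Rangap1 triggers GTP hydrolysis in the cytoplasm. In dividing cells the envelope breaks down and pores are rebuilt after each mitosis, and several of these proteins also act at the spindle or at kinetochores.

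Each library held 17198852 to 18297275 counts, so a level of 1 CPM (reads of a gene per library, scaled by TMM to an equal total) stood for 16.73 to 18.57 reads. Sirt6, the deacylase that the labels say was removed, had 380, 293 and 260 counts in controls 1 to 3, and 474, 492 and 442 counts in knockout-labelled libraries 1 to 3. In CPM it averaged 17.5 ± 3.80 (SD, n = 3) in controls and 26.8 ± 2.29 in the libraries labelled knockout, with a log2 fold change of 0.61 ± 0.19 (SE) and an edgeR adjusted p of 0.998. The targeted gene therefore goes against the label as counted over the whole gene, and all its values under the knockout label lie above those of the controls. A deletion of a few exons may not be seen in these totals. Neither such a deletion nor the correctness of the labels was tested. Directions below are between libraries as labelled. Neural stem cell markers summed to 10345 to 12810.4 CPM in every library, and microglial markers to at most 0.516 CPM. The 25 mitotic genes summed to 2612, 4678 and 1703 CPM in controls 1 to 3 and to 1133, 3060.0 and 823 CPM in knockout-labelled libraries 1 to 3. The 10 astrocyte markers summed to 5991, 2317 and 12102 CPM in controls and 8145, 7890.4 and 19871 CPM under the knockout label. Of the oligodendrocyte lineage list, 8 of 11 tested genes were higher under the knockout label (median log2 fold change 1.06). DESeq2 with the replicate number as a block called 6 higher (0.988% of all genes) and 2 lower (2.08%). The sum of the list went the other way, without overlap between labels. It was 3373, 4511 and 3558 CPM in controls 1 to 3 and 3191, 3314 and 3275 CPM under the knockout label. Of the neuroblast and neuron list, 7 of 9 were higher (median 0.31), with 3 called higher by DESeq2 with the block. Of the astrocyte list all 10 were higher (median 0.74), with 5 called higher by that fit. The part of these cell types in the results below was not tested. Y-linked genes, which only male cells carry, summed to 67.5 CPM in control 1, 234 CPM in control 2, and 0.755 CPM or less in the other 4 libraries. Xist, an X-linked RNA of female cells, was at 1848, 0.485 and 2068 CPM in controls 1 to 3. Under the knockout label it was at 3395, 3088 and 2275 CPM. By these genes male cells were mainly in controls 1 and 2, so sex was not balanced between labels. The part of sex in the results below was not tested. Libraries of the same number deviated together (correlations of 0.43, 0.35 and 0.51 over all tested genes), so they were also compared as pairs.

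Transport receptors and the Ran cycle, not the pore itself, held the most abundant transcripts. Levels of different genes were compared as CPM per kilobase of exon. Ran led, with a mean of 152 CPM per kilobase over the 6 libraries and a range of 105 to 194. Next came the importin alpha Kpna2 at 66.8 (33.1 to 115) and the importin beta Kpnb1 at 66.0 (60.4 to 72.0), whose ranges overlap, so their order is not resolved. Ipo5, an importin for ribosomal proteins and histones among other cargo, averaged 54.2, the transportin Tnpo1 38.5, Rangap1 38.4 and the general exportin Xpo1 32.4 CPM per kilobase. The most abundant structural member was Sec13, shared with the coat of secretory vesicles, at 29.7 CPM per kilobase, followed among nucleoporins by Nup50 at 24.4. The large scaffold genes were lower, at 13.8 for Nup205, 7.00 for Nup133 and 6.82 for Nup160. The lowest members were the paralogues Nup210l at 0.203 and Nup62cl at 0.166 CPM per kilobase, which had 124 and 39 counts in all 6 libraries together.

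**Figure D1:**
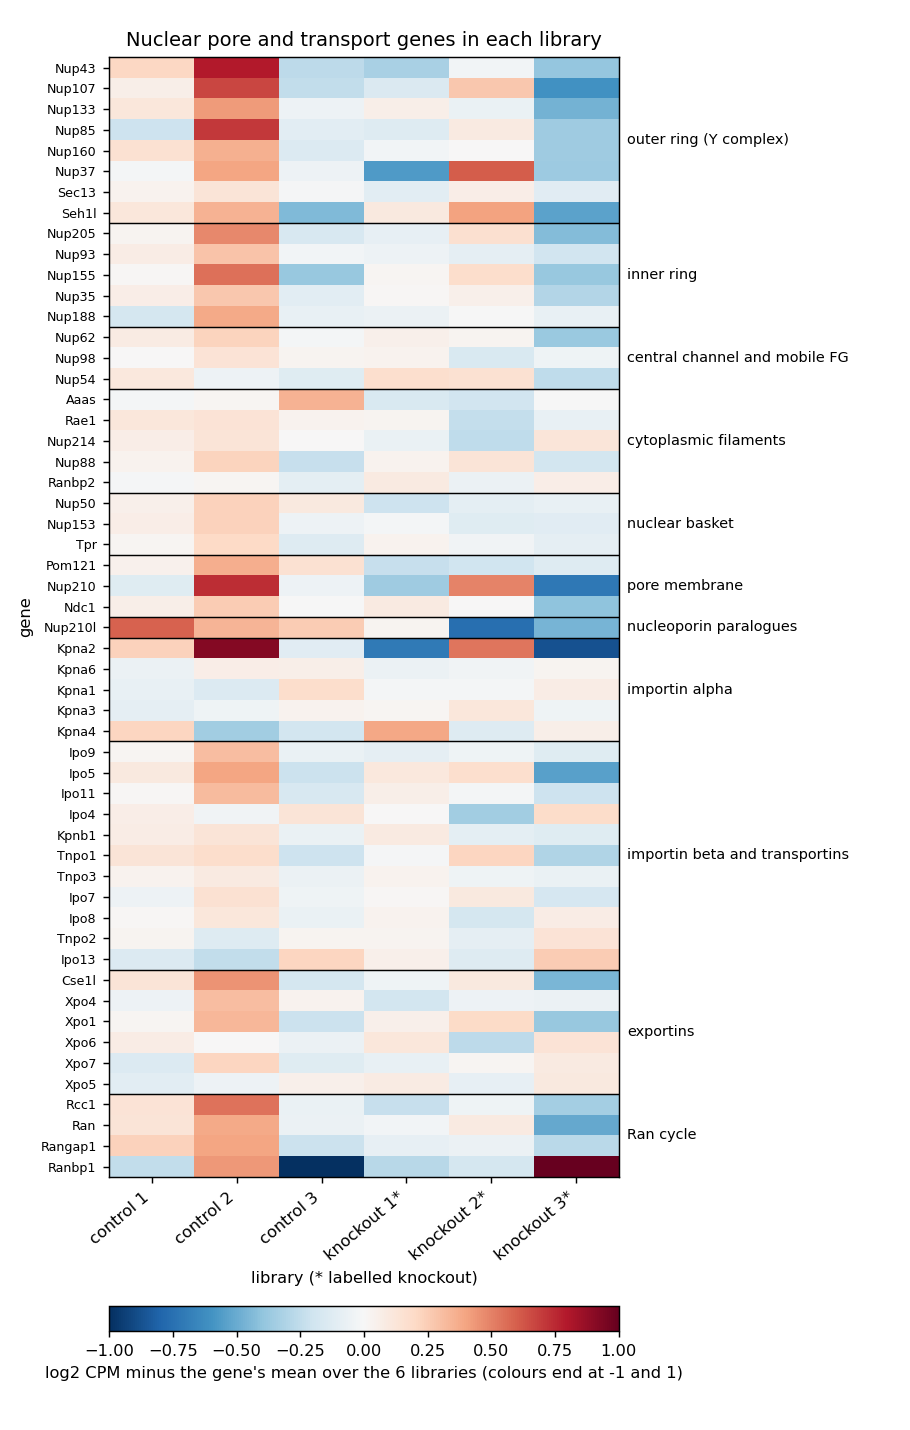
Heat map of the 54 tested members (rows, grouped by role) in the 6 libraries (columns); colour gives log2 CPM minus the gene's mean over the libraries, with the scale ending at -1 and 1, so that Ranbp1 runs past both ends. The column of control 2 is the highest for 38 members and that of knockout-labelled library 3 the lowest for 27.

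No member was called in the comparison of the libraries labelled knockout with the controls, and small differences to the lower side prevailed. With edgeR's quasi-likelihood test on counts, 0 of 54 members had a Benjamini-Hochberg adjusted p under 0.05 in either direction, against 0% of all tested genes (percentages after a member count are this share over the 15087 tested genes). At an unadjusted p under 0.05, 1 member was lower (1.50% of all genes) and 0 were higher (1.98%). The limma-voom test called 0 members, with 1 lower at an unadjusted p under 0.05 (1.64%). DESeq2 also called 0 members, with 1 lower at that level (2.07%), while it called 7 genes (0.0464%) in the whole table. The log2 fold change was below 0 in 43 of 54 members (79.6%, against 50.0% of all genes), with a median of -0.13 against 6.6e-05 for all genes. In 34 members its size was under 0.2 (63.0%, against 58.1% of all genes). Among the 5936 genes of like abundance (32.8 to 246 CPM) that share was 73.6%. In bulk RNA, fewer cells of a type and less RNA per cell cannot be told apart.

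The members were lower in all 3 pairs more often than genes in general, and much of their difference was absent without control 2 or with a Y-linked covariate. Within the same-numbered pairs, 33, 45 and 40 of the 54 members were lower in the library labelled knockout, with median log2 ratios of -0.032, -0.28 and -0.10. In 25 members all 3 pairs were lower (46.3%, against 18.0% of all genes), and in 2, Kpna4 and Ipo13, all 3 were higher (18.0%). Control 2 was the highest library for 38 members (70.4%, against 24.5% of all genes), and knockout-labelled library 3 was the lowest for 27 (50.0%, against 20.9%). Without control 2 the median log2 fold change was -0.033, with 33 members lower, and without knockout-labelled library 3 it was -0.072. After adding the level of Y-linked genes to the model it was -0.00165, with 27 lower and 27 higher. The Y-linked level was above 0.755 CPM only in control 1 (67.5 CPM) and control 2 (234 CPM). This covariate therefore takes up part of the difference between labels and overlaps with leaving out control 2, and these cannot be told apart. Control 2 also had the highest mitotic sum of the 6 libraries, and knockout-labelled library 3 the lowest. The part of mitotic cell content in the members' differences was not tested. Among 5936 genes of like abundance (32.8 to 246 CPM), the median log2 fold change was -0.00222 and 18.9% were lower in all 3 pairs.

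**Figure D2:**
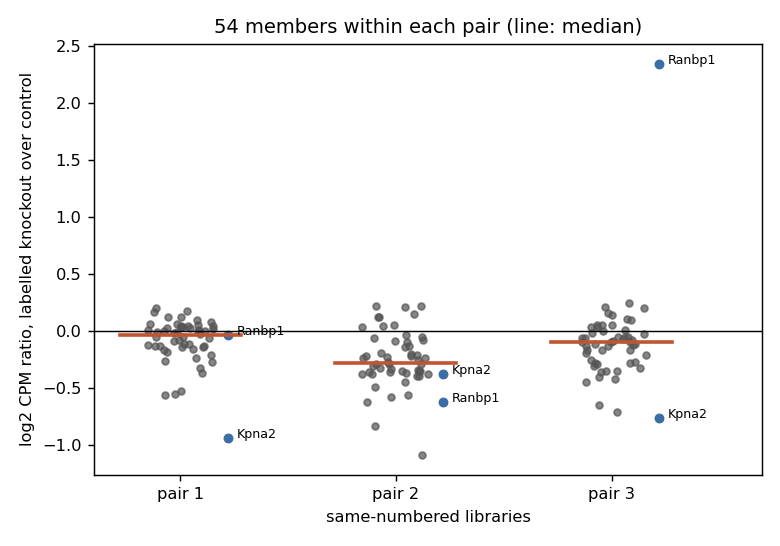
The log2 ratio of CPM, library labelled knockout over the control of the same number, for the 54 tested members in each pair; points are genes and the line is the median of each pair. The medians lie at -0.032, -0.28 and -0.10, and Ranbp1 stands far above the other members in pair 3.

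**Figure D3:**
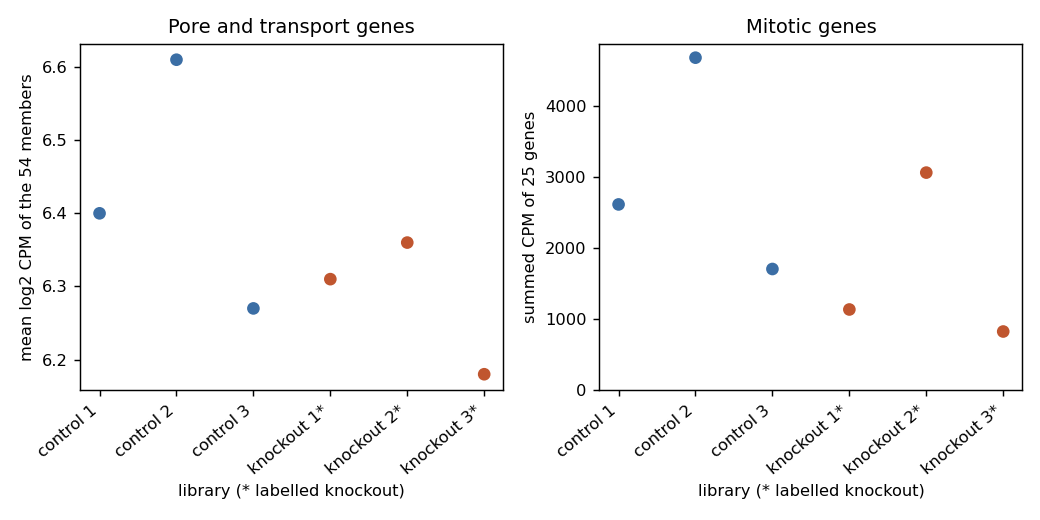
Mean log2 CPM of the 54 tested members (left, axis not from 0) and summed CPM of the 25 mitotic genes (right) in each library, coloured by label. The members' mean is highest in control 2 at 6.61 and lowest in knockout-labelled library 3 at 6.18, and the same libraries are at the ends of the mitotic sum, at 4678 and 823 CPM.

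Fitting the replicate number as a block gave 1 call. With the block, DESeq2 called 1 member lower, Kpna2 (2.08% of all genes were called lower), and 0 higher (0.988%). edgeR with the block called 0 members (0%), but 13 were lower (6.77%) and 1 higher (5.69%) when p was left unadjusted. In limma-voom the paired fit also called 0 members (0%), with 13 lower (6.86%) and 0 higher (5.79%) by that looser measure. In DESeq2 the paired fit had 6 lower (5.61%). The 13 lower members in edgeR were Kpna2, Rcc1, Pom121, Nup210, Nup107, Cse1l, Nup50, Ran, Nup133, Nup160, Nup205, Nup43 and Rangap1, and the higher one was Kpna4. Their unadjusted p-values in edgeR ran from 0.00145 for Kpna2 to 0.0463 for Kpna4, and the smallest adjusted p was 0.113. The 13 include 4 of the 8 outer ring genes and 3 of the 4 Ran cycle genes.

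**Figure D4:**
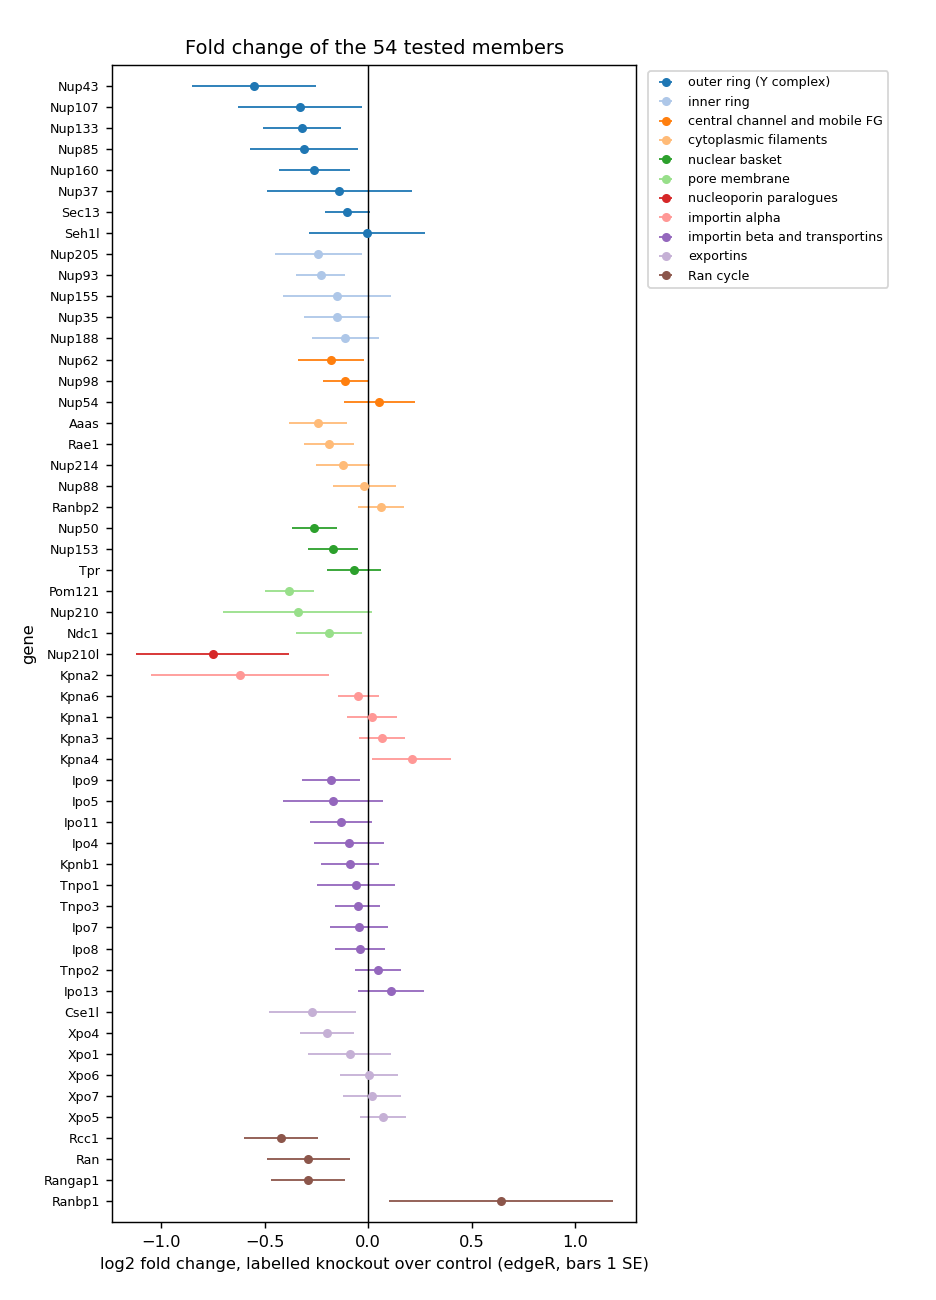
The edgeR log2 fold change of each of the 54 tested members, library labelled knockout over control, with its standard error, grouped by role. Points of the rings, basket, membrane, Ran cycle and importin beta family lie mostly below 0. Those of importin alpha, with Kpna2 at -0.62, and of exportins lie on both sides of it. Ranbp1, at 0.64, is the highest.

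Kpna2 encodes an importin alpha, an adaptor that links cargo with a classical nuclear localisation signal to importin beta, and it is also known as a gene of proliferating cells. The gene lies on the minus strand of chr11:106988629-106999541 (mm10). Its level was 205, 329.9 and 161 CPM in controls 1 to 3 and 107, 253 and 95.1 CPM in knockout-labelled libraries 1 to 3. The groups overlap, because knockout-labelled library 2 lies above controls 1 and 3, but each pair was lower, with log2 ratios of -0.94, -0.38 and -0.76. The group means were 232 ± 87.4 CPM (SD, n = 3) in controls and 152 ± 87.8 CPM under the knockout label. Without pairing, the log2 fold change was -0.62 ± 0.43 (SE), with an edgeR adjusted p of 0.998. Leaving out single libraries gave -1.19 (without knockout-labelled library 2) to -0.27 (without control 2). With the block it fell by 0.70 on the log2 scale (SE 0.16) at a DESeq2 adjusted p of 9.6e-04, while the edgeR adjusted p was 0.113. The DESeq2 call with the block was lost in the 4 libraries without pair 1 (log2 fold change -0.58, adjusted p 0.410) and without pair 3 (-0.67, adjusted p 0.140), and held without pair 2 (-0.85, adjusted p 3.3e-05). Over the other alternatives on all 6 libraries or 5 of them, the adjusted p was 0.112 to 1. With the Y-linked covariate the edgeR log2 fold change was -0.11.

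The order of the 6 libraries was the same for Kpna2 as for the summed mitotic genes, with control 2 first and knockout-labelled library 2 second. Mki67, a marker of cycling cells, was at 441, 849 and 284 CPM in controls 1 to 3 and at 209, 497 and 134 CPM under the knockout label. Top2a, the topoisomerase that untangles chromosomes before division, was at 372, 727 and 251 CPM and at 183, 505 and 125 CPM. All 25 mitotic genes had a log2 fold change below 0 (median -0.83), with 0 called by edgeR and 25 called lower by DESeq2 with the block (2.08% of all genes). The part of these genes' cells in the Kpna2 difference was not tested. A protein-coding copy of Kpna2, Gm10184, had 2.11 to 2.59% as many counts as Kpna2 in every library. The pseudogene copies Gm10259 and Gm12919 had at most 0.473% and 0.261%. How reads that match several copies were counted was not stated, so their share of the Kpna2 reads is not known and was not tested. Kpna6, another importin alpha gene lower in all 3 pairs, lay at 123 to 134 CPM with the smallest coefficient of variation of all members, 3.89%.

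**Figure D5:**
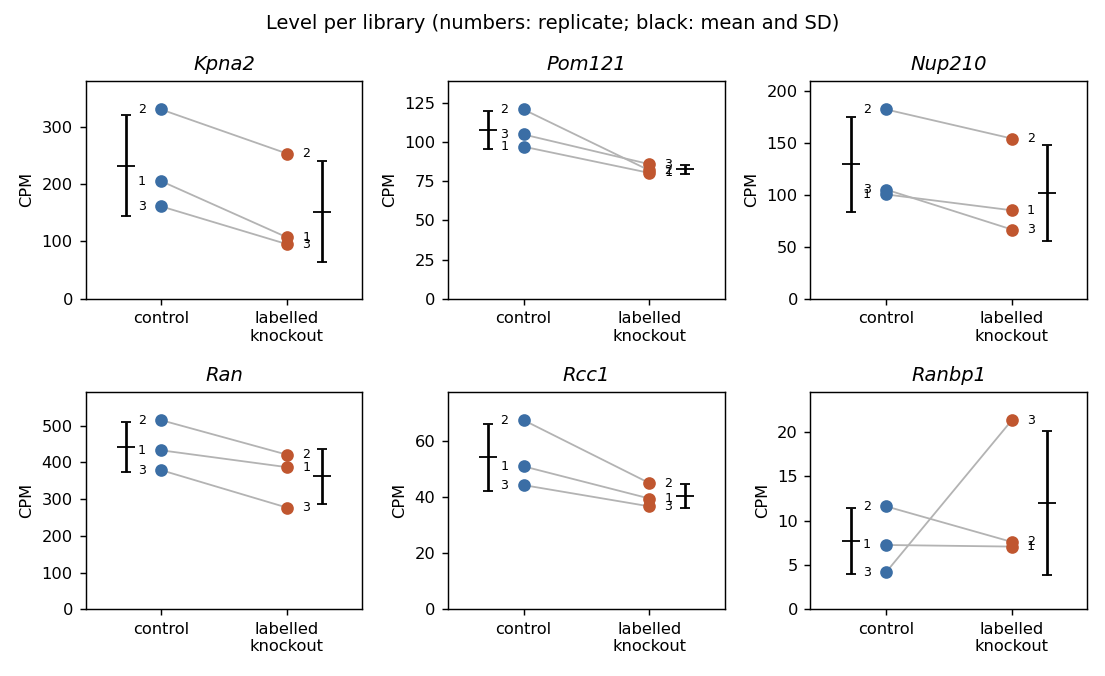
CPM of Kpna2, Pom121, Nup210, Ran, Rcc1 and Ranbp1 in each library; grey lines join libraries of the same number, and black bars give the mean and SD of each label. Pom121 has no overlap between labels, Kpna2 is lower in each pair but overlaps, and Ranbp1 is high in knockout-labelled library 3 at 21.3 CPM.

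The other importin alpha genes showed no call in any fit. Kpna1 averaged 132 ± 15.4 CPM in controls and 134 ± 5.29 CPM under the knockout label, with a log2 fold change of 0.018 ± 0.12. Kpna4 was at 137, 92.7 and 104 CPM in controls 1 to 3 and at 154, 108 and 123 CPM in knockout-labelled libraries 1 to 3. It was thus higher in each pair while the groups overlapped, and its log2 fold change was 0.21 ± 0.19 with an edgeR adjusted p of 0.998. Kpna3 lay between 109 and 126 CPM in all libraries.

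The promoters of the 3 members with the smallest edgeR p in the paired fit are shown, as 250 bases before the RefSeq start (GRCm38.p6, gene strand, 5′ to 3′). Capitals mark words that were searched for on both strands: TTTGAA or TTCGAA (the core of the cell cycle homology region of cell cycle genes), CCAAT (bound by NF-Y), the ETS core CCGGAAG, the NRF1 core TGCGCA, and, as E2F cores, TTCCCGC or else TTGGCGC. Where TTTGAA lies on the opposite strand it is printed as TTCAAA.
Kpna2, chr11:106999526-106999775, minus strand: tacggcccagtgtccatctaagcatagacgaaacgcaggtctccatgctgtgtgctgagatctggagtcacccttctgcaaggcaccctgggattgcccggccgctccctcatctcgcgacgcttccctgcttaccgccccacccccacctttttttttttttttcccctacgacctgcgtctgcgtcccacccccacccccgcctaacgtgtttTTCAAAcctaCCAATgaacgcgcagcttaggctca
Rcc1, chr4:132345751-132346000, minus strand: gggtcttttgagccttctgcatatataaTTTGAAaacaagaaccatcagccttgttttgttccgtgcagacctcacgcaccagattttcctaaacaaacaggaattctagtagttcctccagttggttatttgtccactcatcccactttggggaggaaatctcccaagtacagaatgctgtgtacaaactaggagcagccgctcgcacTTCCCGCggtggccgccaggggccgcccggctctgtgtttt
Pom121, chr5:135394547-135394796, minus strand: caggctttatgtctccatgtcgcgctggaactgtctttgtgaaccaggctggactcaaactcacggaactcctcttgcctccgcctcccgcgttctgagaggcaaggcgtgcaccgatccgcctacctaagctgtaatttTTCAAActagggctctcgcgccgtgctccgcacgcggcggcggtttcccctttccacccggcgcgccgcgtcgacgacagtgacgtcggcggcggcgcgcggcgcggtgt
The Kpna2 window holds TTTGAA on the opposite strand 35 to 30 bases before the start and CCAAT 25 to 21 bases before it. The Rcc1 window holds TTTGAA at 222 to 217 and TTCCCGC at 41 to 35 bases before the start, and the Pom121 window TTTGAA on the opposite strand at 110 to 105. The Rcc1 window lies inside the gene as deposited (chr4:132331919-132353605), so the bases before the outer end of that gene are not shown. Of the 55 members, 44 had a window, and 7 of these had 2 windows. A gene was counted for a word if any of its windows held it. TTTGAA was in 12 of them (27.3%), against 18.3% of all genes with a window and 12.5% of tested genes. CCAAT was in 20 (45.5%, against 37.5% and 40.7%), CCGGAAG in 8 (18.2%, against 7.83% and 15.2%) and TGCGCA in 6 (13.6%, against 7.36% and 13.3%). TTCCCGC was in 5 (11.4%, against 4.38% and 8.24%), and TTGGCGC and TTCGAA in 1 each (2.27%, against 2.31% and 4.18%, and 1.55% and 2.07%). TTTGAA and CCAAT stood together in a window of 6 members (13.6%, against 6.45% of all genes and 4.92% of tested genes). These members were Kpna2, Nup37, Nup98, Ranbp1, Tnpo2 and Tpr. These words are short and a match describes the letters of the window.

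Of the Ran cycle, Ran, Rangap1 and Rcc1 were lower in each pair, and Ranbp1 was not. Ran was at 433, 515 and 379 CPM in controls 1 to 3 and at 387, 421 and 277 CPM in knockout-labelled libraries 1 to 3. The groups overlap, and the log2 fold change was -0.29 ± 0.20 with an edgeR adjusted p of 0.998. Rangap1 was at 216, 243 and 159 CPM and at 174, 177 and 153 CPM, with a log2 fold change of -0.29 ± 0.18. Without control 2 these were -0.17 for Ran and -0.16 for Rangap1, and without knockout-labelled library 3 that of Ran was -0.13. Rcc1, the nucleotide exchange factor that charges Ran, was at 51.1, 67.6 and 44.4 CPM and at 39.6, 45.1 and 36.8 CPM, and only knockout-labelled library 2 reached above the lowest control. Its log2 fold change was -0.42 ± 0.18, or -0.24 without control 2 and -0.15 with the Y-linked covariate. The unadjusted edgeR p was 0.0516 without the block and 0.00897 with it, and the edgeR adjusted p was 0.998 and 0.220. Ranbp1, which binds Ran-GTP and helps Rangap1, was at 7.25, 11.6 and 4.18 CPM in controls and at 7.07, 7.59 and 21.3 CPM under the knockout label. Its log2 fold change of 0.64 ± 0.54 rests on knockout-labelled library 3, with 371 counts against 73 to 216 in the other 5, and was -0.066 without that library. The pair 3 log2 ratio was 2.35 against at most 0.25 for the other members. Ranbp1 overlaps Trmt2a on the opposite strand, which had 1961 counts to its 1044 over the 6 libraries, and the sources used here do not say whether counting used strand. Trmt2a was at 22.7, 18.8 and 19.2 CPM in controls 1 to 3 and at 14.6, 14.7 and 20.9 CPM in knockout-labelled libraries 1 to 3. Its value in knockout-labelled library 3 thus lay within the range of the controls. The part of this overlap in the Ranbp1 counts was not tested.

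The 3 pore membrane genes, which anchor the pore, included the one member at an unadjusted edgeR p under 0.05. Pom121 lies on the minus strand of chr5:135376141-135394546 and was at 97.2, 121 and 105 CPM in controls 1 to 3 and at 80.4, 82.0 and 86.0 CPM in knockout-labelled libraries 1 to 3. All control values lie above all values of the libraries labelled knockout. The means were 108 ± 12.2 and 82.8 ± 2.87 CPM, and the log2 fold change was -0.38 ± 0.12 with an unadjusted edgeR p of 0.0160 and an adjusted p of 0.998. With the block the edgeR adjusted p was 0.225 and the DESeq2 adjusted p 0.184. Leaving out single libraries gave log2 fold changes between -0.45 and -0.29, and adding the Y-linked covariate gave -0.27. Pom121 overlaps Nsun5 on the opposite strand, which had 1863 counts to its 10131 and a log2 fold change of -0.25 ± 0.23.

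Nup210, a membrane nucleoporin known for roles in muscle and neural differentiation in mouse cells, was at 100.3, 182 and 105 CPM in controls and at 85.0, 154 and 66.5 CPM under the knockout label. As for Kpna2, replicate 2 was high under both labels, and each pair was lower although the groups overlap. Its log2 fold change was -0.34 ± 0.36, with an edgeR adjusted p of 0.998. It was -0.00725 without control 2, -0.11 without knockout-labelled library 3, -0.76 without knockout-labelled library 2 and 0.083 with the Y-linked covariate. Ndc1 averaged 64.7 ± 6.12 CPM in controls and 56.6 ± 9.78 CPM under the knockout label, and was lower in 2 of 3 pairs. Nup210l, a paralogue of Nup210 with 124 counts in all, was at 1.67, 1.40 and 1.32 CPM and at 1.13, 0.658 and 0.802 CPM. Its values did not overlap between labels, and its log2 fold change of -0.75 ± 0.37 was the lowest of the members, with an edgeR adjusted p of 0.998.

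Without any overlap between labels, 6 members lay lower in the libraries labelled knockout (11.1% of 54, against 3.73% of all genes), and 0 lay higher (4.88%). Besides Pom121 and Nup210l these were Nup50, Nup93, Rae1 and Xpo4, with small differences. Nup50, a basket nucleoporin that aids import by importin alpha, was at 123, 139.7 and 127 CPM in controls 1 to 3 and at 103, 111 and 113 CPM in knockout-labelled libraries 1 to 3. Its log2 fold change was -0.26 ± 0.11, with an unadjusted edgeR p of 0.0528. Nup93, the linker of the inner ring, was at 78.4, 91.0 and 73.4 CPM and at 72.0, 70.2 and 65.4 CPM, with a log2 fold change of -0.23 ± 0.12. Rae1, an mRNA export factor, averaged 52.8 ± 2.04 and 46.3 ± 4.22 CPM, and the exportin Xpo4 68.3 ± 9.21 and 59.4 ± 2.97 CPM. The nearest values of the labels were 73.4 and 72.0 CPM for Nup93, and 61.2 CPM on either side for Xpo4.

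All 8 outer ring genes had a log2 fold change below 0, with a median of -0.28, and 5 of them were lower in each pair. Summed over the ring, the level was 401, 521 and 351 CPM in controls 1 to 3 and 372, 427 and 303 CPM in knockout-labelled libraries 1 to 3. The sums overlap, and control 2 is the highest. Nup107, which with Nup133 forms the stem of the Y, was at 39.6, 60.2 and 32.0 CPM and at 34.4, 45.8 and 25.0 CPM, with a log2 fold change of -0.33 ± 0.30. Nup133 was at 52.2, 65.1 and 46.6 CPM and at 50.3, 46.3 and 34.8 CPM, with a log2 fold change of -0.32 ± 0.19. Nup160 averaged 65.1 ± 11.1 and 54.5 ± 7.15 CPM, with a log2 fold change of -0.26 ± 0.17. The edgeR adjusted p was 0.998 or higher for each of them without the block.

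Nup43 was at 12.7, 19.1 and 9.16 CPM in controls and at 8.79, 10.8 and 8.42 CPM under the knockout label, with a log2 fold change of -0.55 ± 0.30. It overlaps Pcmt1 on the opposite strand, which had 10436 counts to its 1225 and a log2 fold change of -0.035 ± 0.12. Nup85 was at 56.3, 106 and 60.4 CPM and at 59.3, 69.2 and 50.8 CPM, with a log2 fold change of -0.31 ± 0.26. Without control 2 the log2 fold change was 0.035 for Nup85, -0.030 for Nup107, -0.13 for Nup160, -0.17 for Nup133 and -0.23 for Nup43, all nearer to 0 or past it. Without knockout-labelled library 2, that of Nup107 was -0.56. Sec13 was the steadiest of the ring, at 97.7 ± 4.51 and 91.2 ± 6.53 CPM with a log2 fold change of -0.10 ± 0.11. Seh1l, which like Sec13 also serves in complexes outside the pore, averaged 64.5 ± 17.0 and 64.2 ± 19.9 CPM. Nup37 was the least abundant, at 6.53 to 14.7 CPM. With the Y-linked covariate the ring's median log2 fold change was 0.016, with 4 genes below 0 and 4 above.

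The inner ring, which lines the channel wall, also had all 5 genes below 0, with a median log2 fold change of -0.15. Control 2 was the highest library for each of the 5. Nup205, its most abundant gene by CPM, was at 128, 176 and 113 CPM in controls and at 119, 141 and 93.4 CPM under the knockout label, with a log2 fold change of -0.24 ± 0.21 that was -0.035 without control 2. Nup155 averaged 65.7 ± 21.5 and 59.1 ± 11.1 CPM and Nup188 73.2 ± 15.7 and 67.7 ± 1.64 CPM, while Nup35 lay between 31.2 and 46.1 CPM. With the Y-linked covariate the median was 0.058, and 1 of the 5 was below 0.

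The channel, the cytoplasmic filaments and the rest of the basket varied little. Nup98, a mobile repeat nucleoporin, averaged 82.6 ± 4.15 CPM in controls and 76.7 ± 4.95 CPM under the knockout label, with a log2 fold change of -0.11 ± 0.11. Nup62 averaged 49.2 ± 4.13 and 43.4 ± 6.76 CPM, with a log2 fold change of -0.18 ± 0.16. It overlaps Atf5 on the opposite strand, which had 5813 counts to its 4921 and averaged 46.0 ± 28.7 and 63.5 ± 30.0 CPM. Nup54, their partner in the channel, averaged 29.7 ± 2.46 and 30.8 ± 4.91 CPM. On the cytoplasmic face, Ranbp2, a SUMO ligase that docks Rangap1 at the pore, was at 154 to 175 CPM in all libraries, with a log2 fold change of 0.063 ± 0.11. Nup88 averaged 97.3 ± 15.1 and 96.1 ± 10.5 CPM, with a log2 fold change of -0.018 ± 0.15, and Nup214 averaged 64.0 ± 2.65 and 58.7 ± 7.54 CPM. Aaas averaged 63.0 ± 9.12 and 53.4 ± 3.72 CPM and was lower in each pair, with a log2 fold change of -0.24 ± 0.14. In the basket, Tpr averaged 203 ± 23.5 and 193 ± 8.67 CPM, with a log2 fold change of -0.067 ± 0.13, and Nup153 averaged 104 ± 10.3 and 92.7 ± 3.72 CPM. Of these genes and those of the inner ring, Nup88 overlaps Rabep1 and Tpr overlaps BC003331 on the opposite strand, and Nup35 overlaps Dusp19 on its own strand. The edgeR adjusted p was at least 0.998 for all of these.

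The importin beta family held the largest share of the members' reads, with a sum of 2317 ± 210.2 CPM in controls and 2194 ± 168 CPM under the knockout label, out of 6762 ± 794 and 6174 ± 505 CPM for all members. Its 11 genes had log2 fold changes between -0.18 and 0.11, 9 of them below 0. Kpnb1, the carrier that works with importin alpha, was at 457, 475 and 414 CPM in controls and at 461, 405 and 398 CPM under the knockout label, with a log2 fold change of -0.089 ± 0.14. Tnpo1 was at 466, 483 and 371 CPM and at 424, 497 and 346 CPM, with a log2 fold change of -0.059 ± 0.19. The groups overlap for both. Ipo13, which carries cargo in both directions, was at 116, 108 and 148 CPM and at 132, 117 and 152 CPM, higher in each pair with overlapping groups, and its log2 fold change was 0.11 ± 0.16. Ipo5 averaged 344 ± 72.3 and 307 ± 76.7 CPM, and Ipo9 267 ± 37.1 and 236 ± 6.27 CPM. Tnpo3, the carrier of serine-arginine-rich splicing factors, varied least among the 11, with a coefficient of variation of 4.60%.

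Of the 6 exportins, 3 had a log2 fold change below 0 and 3 above it. Xpo1, the receptor for leucine-rich export signals, was at 232, 289.6 and 198 CPM in controls 1 to 3 and at 238, 262 and 176 CPM in knockout-labelled libraries 1 to 3, with a log2 fold change of -0.089 ± 0.20. Cse1l, which returns importin alpha to the cytoplasm, was at 147, 184 and 119 CPM and at 131, 144 and 98.0 CPM. It was lower in each pair with overlapping groups, and its log2 fold change was -0.27 ± 0.21, or -0.095 without control 2. Xpo6, the exportin of actin and profilin, averaged 161 ± 7.50 and 162 ± 23.9 CPM, with a log2 fold change of 0.00449 ± 0.14. Xpo5, which exports microRNA precursors, averaged 111 ± 6.13 and 117 ± 7.95 CPM, and Xpo7 122 ± 17.3 and 123 ± 7.23 CPM. No exportin had an edgeR adjusted p under 0.998.

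The members varied over the 6 libraries about as much as other genes of their abundance. The coefficient of variation had a median of 13.1% (3.89 to 61.9%), against 19.6% for all tested genes and 13.0% for genes of like abundance, and was under 10% in 18 members (33.3%, against 17.0% of all tested genes and 31.1% of genes of like abundance). The widest members after Ranbp1 were Kpna2 at 46.9%, Nup210 at 38.0% and Nup43 at 35.3%. The standard error of the log2 fold change had a median of 0.16 over the members.

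Related pore, transport and mRNA export genes outside the name rule gave 1 call. Of 22 tested pore and transport genes outside the rule, 14 had a log2 fold change below 0 and 8 above (median -0.047). edgeR called 0 of them, and DESeq2 with the block called 1 lower (2.08% of all genes), Nemp1, an inner nuclear membrane protein (adjusted p 0.0206). The 3 with the smallest edgeR p were Ranbp6 (log2 fold change 0.31 ± 0.14), the SUMO protease Senp1 (-0.31 ± 0.16) and Tmem33 (0.20 ± 0.11). Of 15 mRNA export genes, 8 were below 0 and 7 above (median -0.040), with 0 called by either fit, and Alyref (-0.32 ± 0.18), Nxt1 (-0.42 ± 0.26) and Thoc6 (-0.39 ± 0.26) had the smallest p. At an unadjusted edgeR p under 0.05 there were 0 genes in each of these lists.

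In the authors' deposited table, whose log2 ratio is control over knockout, Kpna2 has 0.62, Pom121 0.38 and Ranbp1 -0.64, each with an adjusted p of 1. These values have the opposite sign to those above because the ratio is inverted.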

How the data were processed

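RNA of 3 control and 3 knockout-labelled neural stem cell cultures was sequenced from an input of 2 µg per library. The submitters' processing notes name HISAT2 2.1.0, Bowtie2 2.2.3 and the mm10 build without saying what each did; what counted the reads, with which annotation and strand setting, was not stated in any source used. The authors deposited a table of raw counts per gene for the 6 libraries, and beside them, per the file headers, mean scaled counts (a signal), a fold ratio, its log2 value and p-values; only the counts entered the tests. Totals were 17198852 to 18297275 counts per library.

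Genes were filtered with filterByExpr (minimum count 10, minimum total 15) and tested with edgeR 4.0.16 (quasi-likelihood, TMM scaling) in R 4.3.3, with Benjamini-Hochberg adjustment over all 15087 genes tested. CPM use TMM-scaled totals. DESeq2 1.42.0, limma-voom (limma 3.58.1), other scalings and filters, a Y-linked covariate and leaving out each library were alternatives; DESeq2 with the block without each pair was added after the data were seen. The edgeR, DESeq2 and limma-voom fits, each with and without the block, were tested on simulated data, and the other alternatives were not. The simulated libraries shared no effect of the replicate number, so the block fits were not tested on paired libraries. The labels do not state a pairing, but same-numbered libraries deviated together (correlations 0.43, 0.35 and 0.51), so values with a replicate block stand beside results they change. Any pair of libraries differed by more than sampling noise.

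Exon lengths are from GENCODE M21, and promoter windows from RefSeq (GRCm38.p6). Protein sequences were not used here, so repeat counts in nucleoporins were not analysed here. Members and lists were chosen with earlier results of these data known. Folds are given for members at an unadjusted edgeR p under 0.05 or called by DESeq2 with the block, the 3 highest and 3 lowest log2 fold changes, the 2 most abundant of each role, and further members of roles described in full; other lists give their 3 smallest edgeR p. Nemp1, Lbr and Tmpo were named after their values were seen, because the block called them.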

Additional observations from a re-analysis of the deposited data

How the results depend on the processing

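The number of members called was 0 in every alternative except DESeq2 with the replicate block, where it was 1, and that fit without pair 1, 2 or 3 gave 0 to 1. Members at an unadjusted p under 0.05 numbered 1, and 3 with RLE size factors, 2 without a filter, 0 with the Y-linked covariate, 0 to 4 without single libraries, and 14, 6 and 13 with the replicate block in edgeR, DESeq2 and limma-voom. The replicate block called no named member other than Kpna2. With the Y-linked covariate the log2 fold change changed sign in 22 of the 54 members, 19 of them from below 0 to above it. Those whose fold changes were followed through every alternative were Cse1l (0.00922), Ipo13 (-0.058), Kpna1 (-0.094), Nup107 (0.11), Nup205 (0.058), Nup210 (0.083), Nup85 (0.12), Nup88 (0.17), Tnpo1 (0.084), Tpr (0.076) and Xpo1 (0.16); the cause was not tested. Xpo6, near 0, was at -0.00674 in limma-voom, -0.00111 with total counts, and -0.00536, -0.00868 and -0.00603 with the block in edgeR, DESeq2 and limma-voom. Without single libraries, 2 to 14 of the 54 members changed sign, 14 without control 2 and 12 without knockout-labelled library 3. Among the members followed, signs changed within the ranges -0.044 to 0.12 for Kpna1, -0.48 to 0.035 for Nup85, -0.12 to 0.094 for Nup88, -0.066 to 1.07 for Ranbp1, -0.19 to 0.067 for Tnpo1, -0.14 to 0.024 for Tpr, -0.21 to 0.070 for Xpo1 and -0.064 to 0.13 for Xpo6. The members' median stayed below 0 in all alternatives, from -0.21 to -0.033 without single libraries and at -0.00165 with the Y-linked covariate. Depth limits Nup62cl and Nup210l, with 39 and 124 counts in all.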

Other observations

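The nuclear lamina and envelope, to which pores are anchored, had 8 of 15 tested genes with a log2 fold change below 0 and 7 above (median -0.028), with 0 called by edgeR. DESeq2 with the replicate block called 3 lower, against 2.08% of all genes. They were Lmnb1, a B-type lamin (adjusted p 3.6e-05), Lbr, the lamin B receptor (adjusted p 0.0276), and Tmpo, a lamina-associated protein (adjusted p 0.0350). Lmnb1 averaged 276 ± 149 CPM in controls and 167 ± 91.5 CPM under the knockout label (n = 3 each), with an edgeR log2 fold change of -0.73 ± 0.48. With the Y-linked covariate it was 0.039. Its highest library was control 2, at 441 CPM, as for Kpna2 and the mitotic sum. By the smallest edgeR p, Banf1, which binds chromatin to the reforming envelope, had a log2 fold change of -0.34 ± 0.22 and Syne2, a linker of nucleus and cytoskeleton, 0.31 ± 0.20. All 20 DNA replication genes had a log2 fold change below 0 (median -0.75), with 0 called by edgeR and 17 called lower by DESeq2 with the block.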
